A study of Mus musculus with 24 samples.

Results

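Cytosolic ribosomal proteins build the large (RPL) and small (RPS) subunits of the ribosome, and their genes were followed here in bone marrow-derived macrophages, primary phagocytes grown from mouse marrow. Genes were chosen as protein-coding symbols that start with Rpl or Rps and a digit, plus Rplp0, Rplp1, Rplp2 and Rpsa, without the S6 kinases. Of 92 such genes, the 54 with a mean count of 50 or more over all 24 libraries were kept, 33 named after the large subunit and 21 after the small subunit, out of 52636 gene models. The genes were thus chosen by their mean count, and levels are given as a description with no test. Just inside the minimum stood Rps27rt at a mean count of 50.12, and just outside it stood Rpl12 at 49.25.

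The libraries came from Ninj1 knockout (KO) mice or from wild-type C57BL/6 mice (WT), and the macrophages had been stimulated with Pam3, a lipopeptide ligand of Toll-like receptor 2, or kept in media. Ninj1 encodes a membrane protein of plasma membrane rupture. The 4 groups, KO after Pam3, WT after Pam3, KO in media and WT in media, held 6 libraries each. Nothing in the labels ties a library to its own animal or culture, and p-values here reflect only how far these libraries spread, which may be technical. Sources used here give neither the dose and length of stimulation nor the deleted part of Ninj1 or the making of the knockout.

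Total counts ran from 31302011 to 40663152 a library. Ninj1 itself averaged 429 ± 25.7 CPM in KO and 810 ± 176 CPM in WT after Pam3, and 167 ± 9.68 CPM in KO and 307 ± 15.7 CPM in WT in media (SD, n = 6), with every KO library below every WT library of the same treatment. CPM scale the counts to library size and TMM factors, which align the libraries on the bulk of their genes. Macrophage markers were high in all groups, with a summed level of 25888 CPM or more in each library, and erythroid markers were at or near 0. The labels call the WT libraries male, but Xist stood at 233 to 796 CPM in all 24 libraries and 4 Y-linked genes together had 28 reads. In the WT group after Pam3, replicate 5 stood apart from the other 5 libraries for most ribosomal protein genes, so the counts and the changes that this library moved most are also given without it.

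Ribosomal proteins are made in near-equal amounts and assemble with ribosomal RNA in the nucleolus. Their mRNAs are among the most abundant in growing cells, and most begin with a C followed by a run of pyrimidines, the 5′ terminal oligopyrimidine (TOP) motif. Through this motif the kinase mTORC1 and the RNA-binding protein LARP1 control their translation, so that ribosome output can change without a change in mRNA. Most mammalian ribosomal protein genes also have processed pseudogenes, intronless copies of the mRNA scattered over the genome, some of them nearly identical to the parent.

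The copies bear directly on these counts, because only reads with a unique place were counted and reads were 50 bases long. Each gene's coding sequence was cut into all its 50-base windows, and each window was searched for in the other annotated transcripts. The first 50 coding bases of several genes are shown to make this concrete, each with its closest copy where a copy carries the stretch unchanged, so that no base differs and none is in capitals. Rpl8 (large subunit, chr15:76904078-76906314, plus strand, GRCm38) shares a coding window with 1 other annotated gene, which does not carry this stretch. A read of the stretch shown for Rpl14 (large subunit, chr9:120571444-120574654, plus strand), Rpl23 (large subunit, chr11:97777527-97782437, minus strand) and Rps6 (small subunit, chr4:86854660-86857412, minus strand) cannot be told from one of the copy shown under each.
Rpl8: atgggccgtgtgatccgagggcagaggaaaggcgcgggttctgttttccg
Rpl14: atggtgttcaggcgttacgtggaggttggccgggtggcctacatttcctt
Rpl14-ps1: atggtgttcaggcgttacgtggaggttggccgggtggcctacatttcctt
Rpl23: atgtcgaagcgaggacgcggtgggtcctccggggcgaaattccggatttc
Gm9794: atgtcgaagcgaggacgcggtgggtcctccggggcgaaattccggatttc
Rps6: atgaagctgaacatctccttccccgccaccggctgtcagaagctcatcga
Rps6-ps1: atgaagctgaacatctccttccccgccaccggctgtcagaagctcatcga

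Counts and unique sequence went together in these genes. Rpl8, a large subunit protein near the peptidyl transferase centre, had 91.3% of coding windows free of an exact copy and a mean count of 16736. Rps3, a small subunit protein at the mRNA entry channel, had 91.9% free and a mean count of 15460. In contrast Rps6, the classical substrate of the S6 kinases, had 0% of coding windows free of an exact copy and a mean count of 2.38, and 7 of the 24 annotated copies that share a window with it carried the first 50 coding bases unchanged. Rpl3, a core protein of the large subunit, had 4.31% free and a mean count of 17.04.

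Over the 54 genes the median share of coding windows with no exact copy was 16.4%, and over the 38 genes below the minimum it was 0%. The 18 genes with a mean count of 1000 or more had a median of 55.2%, and the 36 genes with less had 9.21%. Across all 92 genes mean count and this share had a Spearman rho of 0.47, and across the 54 genes 0.71, as a description of genes that share libraries and reads. Rpl41, whose protein is the shortest of the ribosome, was an exception at a mean count of 1313 with 0% of its coding windows free, and outside the coding sequence its reads can still be unique.

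**Figure D1:**
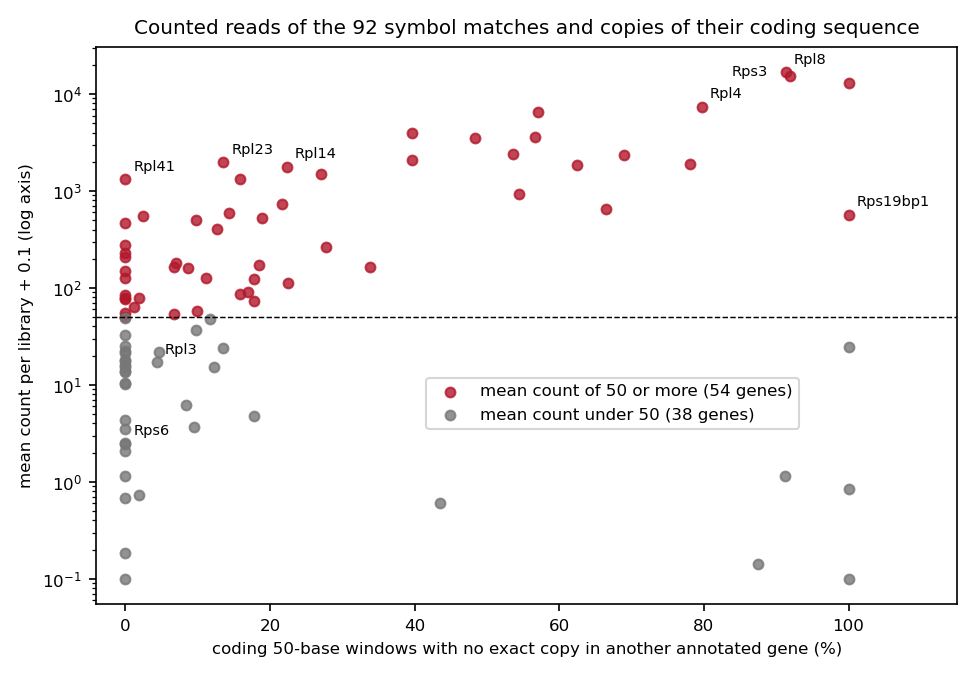
Mean count per library (log axis, 0.1 added) against the share of coding 50-base windows with no exact copy in another annotated gene, for the 54 genes at or above the minimum of 50 (red) and the 38 below it (grey). Rpl8 and Rps3 lie at the upper right with over 90% of windows free, and Rps6 and Rpl3 lie at the left below the minimum.

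Reads were also counted in pseudogenes. In all, 1520 annotated pseudogenes shared a coding window with 1 of the 92 genes at 2 mismatches or fewer, 1047 of them had a read in some library, and 50 had a mean count of 50 or more. For 12 of the 54 genes the matched pseudogenes held more reads than the gene. Gm9794 (chr6:66875321-66875743) had a mean count of 4470 and its parent Rpl23 had 1967. Rpl14-ps1 (chr7:45324965-45325617) had 3660 and Rpl14 had 1785. The third most counted copy, Gm5805, matched Rps14, with mean counts of 1975 and 3501. The copies of Rps6 had a summed mean count of 7.75. Which locus the counted reads of a pseudogene came from was not tested. A read that fits both gene and copy is counted in neither, so a low count here does not show a low mRNA level.

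Per length, the levels spanned a wide range. Rpl8 had a median of 475 RPKM (reads per length and library size, adjusted by the authors) over the 24 libraries, Rps3 194 RPKM, Rplp1 192 RPKM and Rps15 137 RPKM. At the low end stood Rpl21 at 0.548 RPKM, Rpsa at 0.614 RPKM, Rpl9 at 1.26 RPKM, Rpl28 at 1.31 RPKM and Rpl7a at 1.37 RPKM. Neighbours in this order often overlapped, as Rps3 and Rplp1 did, with 181 to 206 RPKM and 169 to 217 RPKM over the KO libraries after Pam3. The 10 most counted genes took 76.6% of all reads of the 54 genes. A summed level is therefore mostly a measure of a few genes.

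The 54 genes took a small share of each library. They held 0.215% to 0.241% of counted reads in KO and 0.205% to 0.361% in WT after Pam3, and 0.310% to 0.343% in KO and 0.300% to 0.310% in WT in media. Without replicate 5, the highest WT library after Pam3 was at 0.215%, so that all Pam3 libraries but that replicate lay below all media libraries. On the TMM scale this order was not seen. The summed level had a median of 2568 CPM in KO and 2564 CPM in WT after Pam3, against 2718 CPM in KO and 2558 CPM in WT in media. Scaled to library size alone, the median log2 change of all 14435 genes tested was -0.56 in KO and -0.58 in WT, and that of the 54 genes was -0.54 and -0.38. A share of reads is relative to the other transcripts of its library and gives no amount per cell. What moved the share was not tested. Fewer cells of a type and less of these mRNAs per cell cannot be told apart in such bulk samples.

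**Figure D2:**
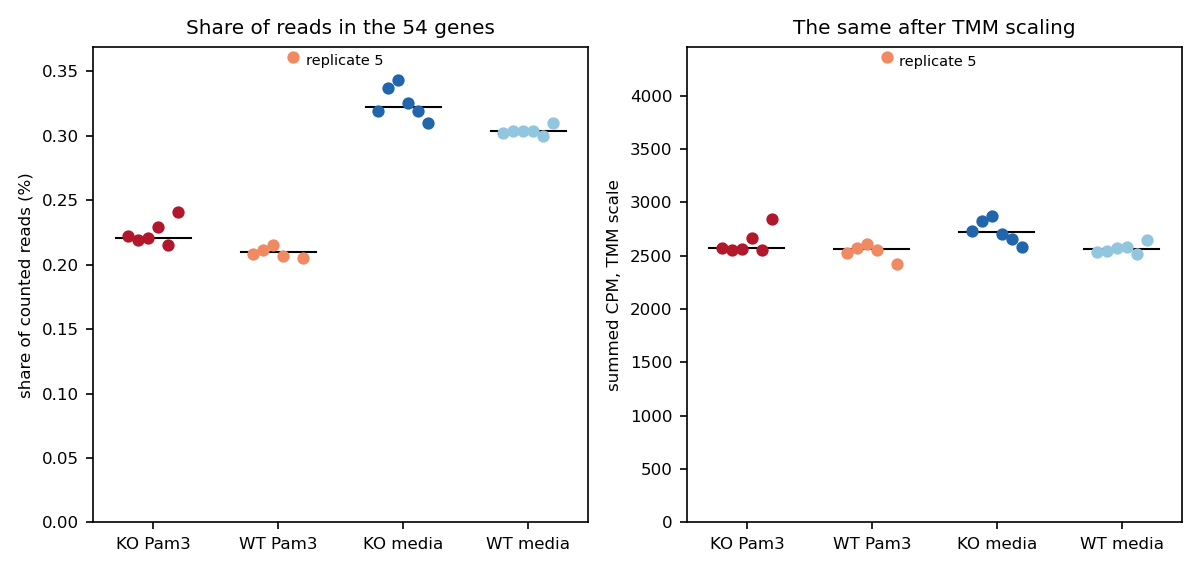
Share of counted reads in the 54 genes (left, %) and their summed level on the TMM scale (right, CPM) in each library, with points for libraries and black lines for group medians. WT Pam3 replicate 5 lies at 0.361% and 4359 CPM, above the other 5 libraries of its group, and the lower share after Pam3 is not seen on the TMM scale.

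Replicate 5 of WT after Pam3 was higher than the median of the other 5 libraries for 52 of the 54 genes and above all 5 for 50. The median log2 ratio was 0.74 for the 54 genes, 0.62 for 75 mitochondrial ribosomal protein genes and 0.03 for all genes tested. Over all genes the ratio went with transcript length, at 0.43 for the 1485 genes whose longest transcript is under 1000 bases and -0.33 for the 4788 genes of 4000 bases or more. The 54 genes have short transcripts, with a median longest transcript of 1113 bases against 3063 bases for all genes tested. The part of length in this library's values was not tested further.

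Pam3 against media asks how a bacterial lipopeptide signal moved the ribosomal protein mRNAs, relative to the bulk of genes. Most moved little in a response that moved most of the transcriptome. In KO cells 9 of the 54 genes were higher and 10 lower, or 35.2%, against 85.0% of all genes tested, 40.2% higher and 44.8% lower (edgeR quasi-likelihood test, Benjamini-Hochberg adjusted p under 0.05 over all 14435 genes). In WT cells 15 were higher and 6 lower, or 38.9%, against 84.8% of all genes, 40.6% higher and 44.2% lower. All 54 had passed the low-count filter. Pam3 and media libraries did not overlap for 17 of the 54 genes in KO, against 75.7% of all genes, and for 8 in WT, against 68.8%. The median absolute log2 change was 0.176 in KO and 0.206 in WT, against 0.830 and 0.841 over all genes tested, and 1 of the 54 genes changed more than 2-fold in each genotype, against 43.2% and 43.3% of all genes. The median SE was 0.118 for the 54 genes in both genotypes and 0.0862 and 0.0865 for all genes.

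Without replicate 5 the WT response had 15 genes higher and 16 lower, or 14 and 6 of the same genes, with Rplp0 lost, Rpl10 gained as higher, and 10 gained as lower, among them Rps3, Rps14, Rps15, Rpl31 and Rpl32. Of all genes, 86.7% then passed. The KO response, whose error estimate shares that library, then had 12 higher and 18 lower, against 87.7% of all genes. The median change in WT was 0.14 with the library and within rounding of 0 without it, against -0.05 for all genes tested and -0.08 without it. In KO the median was -0.05 both ways. Fitted on the 12 KO libraries alone, 12 genes were higher and 18 lower, against 88.4% of all genes. Fitted on the 12 WT libraries alone, 11 were higher and 6 lower, against 83.3% of all genes. Scaled to library size alone, 4 were higher and 43 lower in KO and 4 higher and 39 lower in WT, against 87.4% and 87.6% of all genes.

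**Figure D3:**
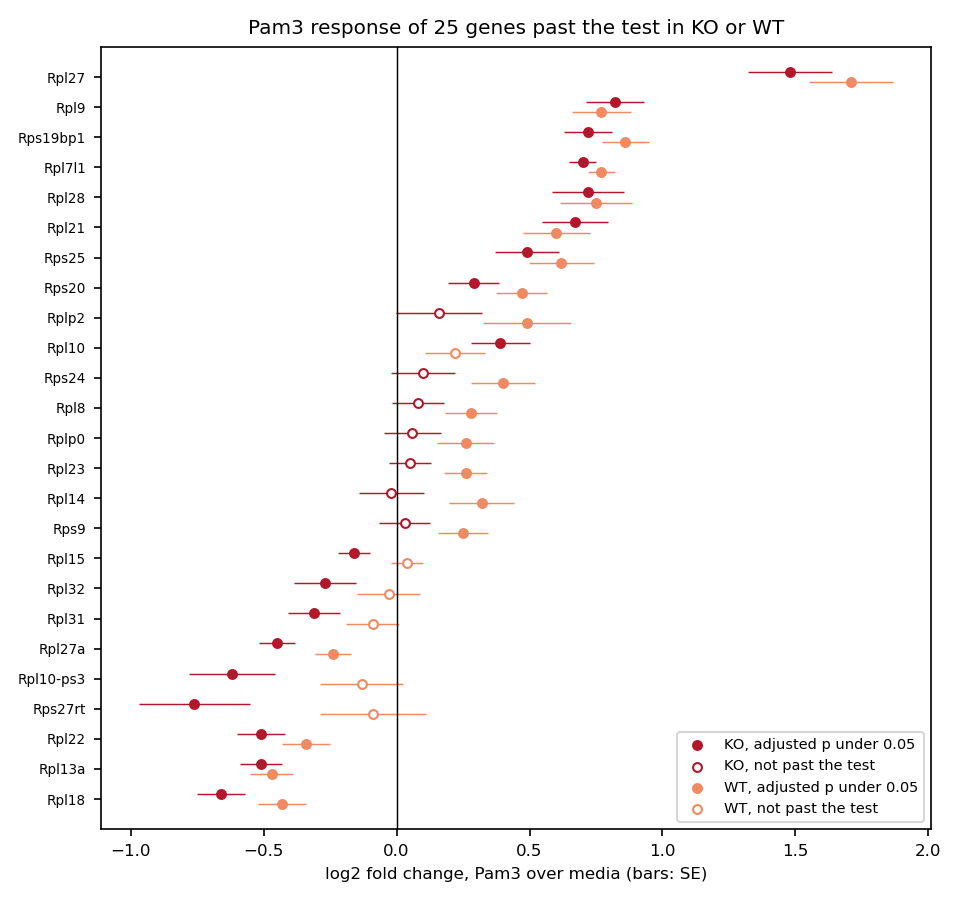
Log2 fold change of Pam3 over media for 25 of the genes that passed the test in KO or WT, in KO (dark red) and WT (orange), with SE bars, ordered by the sum of the 2 changes, where filled points passed an adjusted p under 0.05. Rpl27 leads the rises at 1.48 in KO and 1.71 in WT, and Rpl18 has the lowest sum of changes.

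After Pam3, 8 genes were higher in both genotypes: Rpl27, Rpl9, Rpl28, Rpl21, Rpl7l1, Rps19bp1, Rps25 and Rps20. Of all genes tested, 40.2% were higher in KO and 40.6% in WT, and the share higher in both was not counted. Rpl27, a large subunit protein, stood at 2.96, 3.36 and 4.60 CPM (lowest, median and highest library) in KO and 2.89, 3.82 and 5.50 CPM in WT after Pam3. In media it stood at 1.06, 1.29 and 1.50 CPM in KO and 0.777, 1.20 and 1.58 CPM in WT. All Pam3 libraries lay above all media libraries of the same genotype. The change was 1.48 (SE 0.157, adjusted p = 1.9e-09) in KO and 1.71 (SE 0.158, adjusted p = 1.11e-10) in WT on the log2 scale, and 1.60 in WT without replicate 5. All its coding windows had an exact copy in another annotated transcript (0% free). Where in the gene model its counted reads lie, 84.2 a library on average, was not tested.

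The gene that lies 2878 bases from Rpl27 on the same strand, the interferon-induced Ifi35, rose by 2.39 in KO and 3.08 in WT on the log2 scale. It was looked at after the value of Rpl27 was seen, and whether reads of Ifi35 reach the Rpl27 model was not tested. Rps25, a small subunit protein used in some internal initiation, overlaps Trappc4 on the other strand. Rps25 rose by 0.49 (SE 0.120, adjusted p = 0.000551) in KO and 0.62 (SE 0.121, adjusted p = 3.62e-05) in WT, and Trappc4 had changes of 1.12 and 1.22. The library kit does not mark strand, so reads of the overlap cannot be assigned to either gene.

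Rpl9, a large subunit protein near the stalk base, had 5.06, 5.56 and 6.58 CPM in KO and 3.87, 5.38 and 6.84 CPM in WT after Pam3, against 2.95, 3.17 and 3.48 CPM in KO and 2.79, 3.03 and 3.81 CPM in WT in media. The groups did not overlap in either genotype. It rose by 0.82 (SE 0.109, adjusted p = 9.87e-08) in KO and 0.77 (SE 0.111, adjusted p = 3.71e-07) in WT, or 0.70 in WT without replicate 5. Rpl28 and Rpl21, also of the large subunit, rose by 0.72 and 0.67 in KO and by 0.75 and 0.60 in WT, or 0.64 and 0.56 in WT without replicate 5. Like Rpl27 and Rpl9, both had 0% of coding windows free of an exact copy and low levels, with mean counts of 78.0 and 54.5.

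Rpl7l1, a relative of Rpl7 that acts in building the large subunit, had 65.6, 67.6 and 69.0 CPM in KO and 62.2, 66.1 and 80.6 CPM in WT after Pam3, against 38.0, 41.7 and 44.1 CPM in KO and 37.4, 39.8 and 41.5 CPM in WT in media. No Pam3 library overlapped a media library. Its change of 0.70 in KO (SE 0.0497) and 0.77 in WT (SE 0.0498) had the smallest adjusted p of the 54 genes, 4.49e-13 and 5.29e-14. Its namesake Rpl7 did not pass the test, at -0.12 in KO and -0.08 in WT (adjusted p = 0.305 and 0.506).

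Rps19bp1 meets the symbol rule but encodes a protein that binds RPS19, not a ribosomal protein. It stood at 19.1, 20.2 and 21.3 CPM in KO and 18.4, 19.4 and 31.0 CPM in WT after Pam3, against 11.4, 12.3 and 13.1 CPM in KO and 10.7, 11.6 and 12.5 CPM in WT in media. Without it the counts were 8 higher and 10 lower in KO, and 14 higher and 6 lower in WT, of 53 genes. It rose by 0.72 (SE 0.0886) in KO and 0.86 (SE 0.0890) in WT, and 0.73 in WT without replicate 5. Rps20, a small subunit head protein, rose by 0.29 (adjusted p = 0.00802) in KO and 0.47 (adjusted p = 8.5e-05) in WT, or 0.31 without replicate 5.

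After Pam3, 5 genes were lower in both genotypes, Rpl18, Rpl22, Rpl13a and Rpl27a among them. Of all genes tested, 44.8% were lower in KO and 44.2% in WT, and the share lower in both was not counted. Rpl18, a large subunit protein, stood at 9.68, 10.3 and 11.2 CPM in KO and 9.98, 10.5 and 16.9 CPM in WT after Pam3, against 14.7, 16.4 and 17.8 CPM in KO and 14.0, 15.8 and 16.2 CPM in WT in media. The KO groups did not overlap, and in WT only replicate 5, at 16.9 CPM, reached the media libraries. It fell by 0.66 (SE 0.0895, adjusted p = 1.62e-07) in KO and by 0.43 (SE 0.0895, adjusted p = 9.34e-05) in WT, or by 0.56 in WT without replicate 5. Rpl18 overlaps Sphk2 on the other strand, which had a change of 0.15 in both genotypes.

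Rpl22, a large subunit protein that also binds viral and cellular RNAs, had 48.6, 51.1 and 57.4 CPM in KO and 47.1, 49.6 and 82.5 CPM in WT after Pam3, against 70.4, 73.2 and 78.0 CPM in KO and 66.6, 70.4 and 71.3 CPM in WT in media. It fell by 0.51 (SE 0.0906, adjusted p = 1.13e-05) in KO and by 0.34 (SE 0.0906, adjusted p = 0.00106) in WT, or by 0.50 in WT without replicate 5. Of its coding windows 69.0% were free of an exact copy. Its paralog Rpl22l1 lay below the minimum, with a mean count of 4.71.

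Rpl13a, known from human monocytes as a silencer of inflammatory mRNAs once it leaves the ribosome, fell by 0.51 (SE 0.0793, adjusted p = 1.61e-06) in KO and by 0.47 (SE 0.0802, adjusted p = 6.88e-06) in WT, or by 0.58 in WT without replicate 5. It stood at 11.5, 12.7 and 12.8 CPM in KO after Pam3 and a median of 11.2 and a highest of 16.6 CPM in WT after Pam3, against 15.7, 17.8 and 19.6 CPM in KO and 15.3, 16.6 and 17.4 CPM in WT in media. Rpl27a, another large subunit protein, had a median of 10.6 and a highest of 11.2 CPM in KO, and 10.4, 10.9 and 15.2 CPM in WT after Pam3, against 13.9, 14.4 and 15.7 CPM in KO and 13.2, 13.6 and 14.9 CPM in WT in media. Only replicate 5 of the WT Pam3 libraries, at 15.2 CPM, reached the media libraries. It fell by 0.45 in KO and by 0.24 in WT (adjusted p = 7.46e-07 and 0.00166), or by 0.33 in WT without replicate 5.

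**Figure D4:**
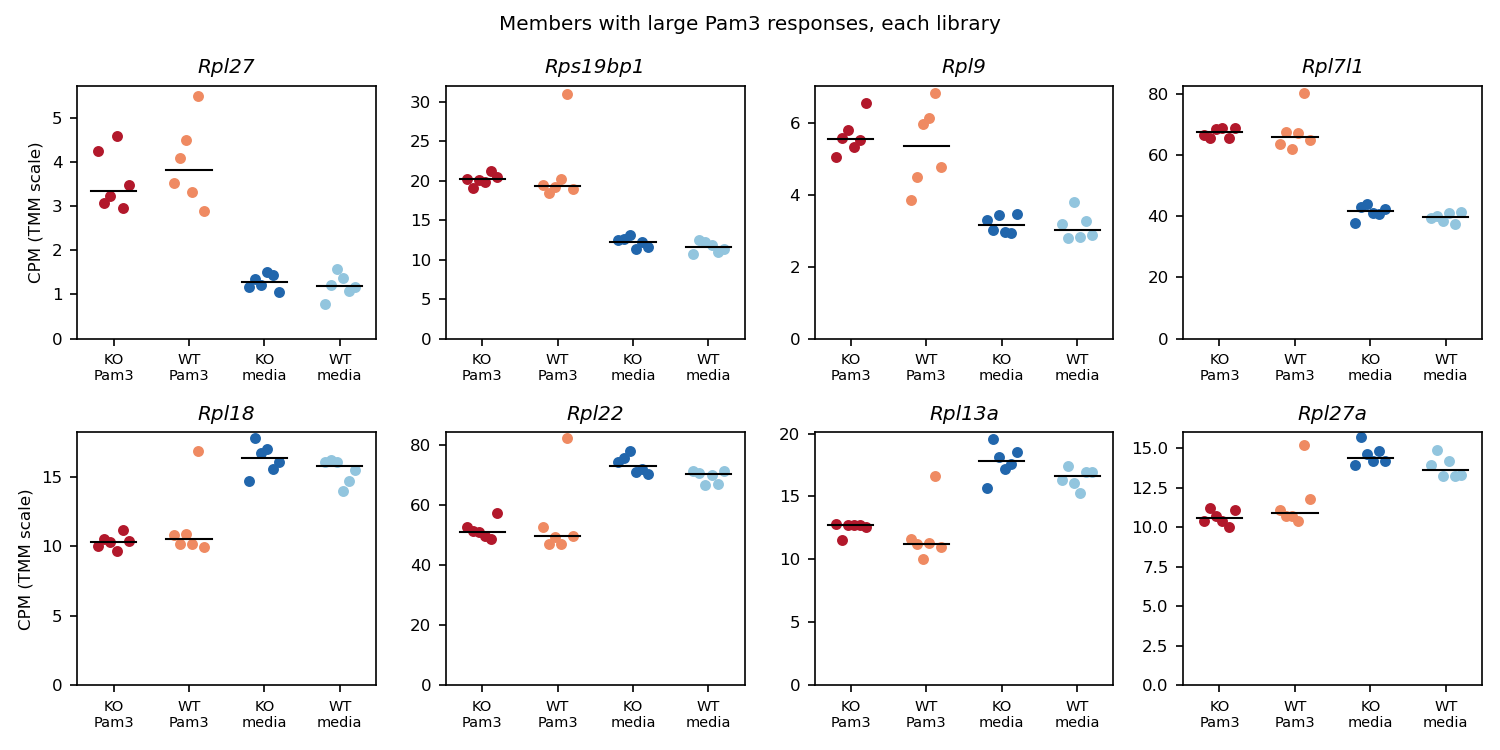
Level of 8 genes in each library (CPM on the TMM scale, axes from 0), with points for libraries and black lines for group medians, in the order KO Pam3, WT Pam3, KO media and WT media. Rpl27, Rps19bp1, Rpl9 and Rpl7l1 are higher after Pam3, Rpl18, Rpl22, Rpl13a and Rpl27a are lower, and the single high WT Pam3 point of the lower row is replicate 5, at 16.9 CPM for Rpl18 and 82.5 CPM for Rpl22.

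Further calls came in a single genotype, and no interaction test passed for these genes. Rps27rt, an intronless relative of Rps27, and Rpl10-ps3, an intronless relative of Rpl10 annotated as protein-coding, fell in KO by 0.76 (SE 0.210, adjusted p = 0.00170) and 0.62 (SE 0.162, adjusted p = 0.00105). In WT their changes were -0.09 and -0.13, and -0.40 (adjusted p = 0.0136) and -0.31 (adjusted p = 0.0360) without replicate 5. Both have 0% of coding windows free of an exact copy, so parent and copy cannot be told apart in coding reads. Rpl31, Rpl32 and Rpl15 fell in KO by 0.31, 0.27 and 0.16 (adjusted p = 0.00561, 0.0382 and 0.0145). Rpl31, Rpl32 and Rpl15 overlap Tbc1d8, Cand2 and Nkiras1 on the other strand, which had changes of -2.54, -3.00 and -0.42 in KO. Rps14, called lower only without replicate 5, overlaps Ndst1 on the other strand, which had changes of -2.25 in KO and -2.28 in WT. Rpl10, a large subunit protein near the P site, rose in KO by 0.39 (adjusted p = 0.00230), with 0.22 in WT (adjusted p = 0.0767).

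The WT rises of Rplp2, Rps24, Rpl14, Rpl8, Rpl23, Rplp0 and Rps9 were between 0.25 and 0.49, and between 0.08 and 0.23 without replicate 5. In the fit of the WT libraries alone, Rpl14, Rpl8, Rplp0 and Rps9 did not pass. Rplp2, a protein of the acidic stalk that recruits elongation factors, rose by 0.49 (SE 0.165, adjusted p = 0.00774) and by 0.23 without that replicate. Its level was 3.98, 4.94 and 5.82 CPM in KO and 3.84, 4.41 and 9.77 CPM in WT after Pam3, against 3.73, 4.27 and 5.10 CPM in KO and 3.24, 3.75 and 4.37 CPM in WT in media. Rplp0, the base of that stalk, rose by 0.26 (adjusted p = 0.0266), and by 0.08 without replicate 5, which did not pass (adjusted p = 0.104). Rplp1, the other acidic stalk protein, did not pass in KO or WT, at -0.06 and 0.25 (adjusted p = 0.685 and 0.0829).

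Several well-known genes of the set did not pass the test after Pam3. Rps19, a gene mutated in Diamond-Blackfan anaemia, had 12.3, 14.3 and 15.1 CPM in KO and 12.5, 14.2 and 28.9 CPM in WT after Pam3, against 13.6, 14.0 and 17.5 CPM in KO and 12.5, 13.7 and 14.5 CPM in WT in media. Its changes were -0.06 and 0.24 (adjusted p = 0.688 and 0.0982). Rpl5, which with RPL11 and the 5S RNA holds back MDM2, changed by 0.15 in both (adjusted p = 0.113 and 0.111). Rpl5 overlaps Fam69a on the other strand, which had changes of -1.82 in KO and -1.69 in WT. Rpsa, the laminin receptor precursor, had changes of 0.00 and 0.23 (adjusted p = 0.981 and 0.220). Rps4x, the X-linked form of a small subunit protein, had -0.17 and 0.13 (adjusted p = 0.324 and 0.456). Rps27l, a p53-induced paralog of Rps27, had 0.03 and 0.15 (adjusted p = 0.797 and 0.125). Rpl4, with well over 50% of windows free, had -0.05 in KO and 0.09 in WT. Without replicate 5 the WT changes of these 6 genes lay between -0.03 and 0.09, and none of them passed (lowest adjusted p = 0.305). For these genes a small change remains possible within the SE of 0.0666 to 0.176.

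Calls were found among genes with much and with little unique sequence. Of the 13 genes with more than 50% of coding windows free of an exact copy, 2 were higher and 3 lower in KO, and 4 higher and 2 lower in WT, with medians of -0.09 and 0.11. Of the other 41 genes, 7 were higher and 7 lower in KO, and 11 higher and 4 lower in WT, with medians of -0.05 and 0.15. By subunit name, 6 of 33 large subunit genes were higher and 8 lower in KO, and 10 higher and 5 lower in WT. Of 21 genes named after the small subunit, 3 were higher and 2 lower in KO, and 5 higher and 1 lower in WT. Rpl7l1 and Rps19bp1 are counted in the subunit sets by name and were among the higher genes in both genotypes. The share called in these sets ran from 23.8% to 46.2%, against 85.0% of all genes in KO and 84.8% in WT. Without replicate 5 the WT response had 4 higher and 5 lower of the 13, 11 and 11 of the 41, 10 and 11 of the large subunit and 5 and 5 of the small subunit. The share of all genes called in WT was then 86.7%. Gm9794 rose by 0.22 in KO and 0.38 in WT (adjusted p = 0.00974 and 8.27e-05), with changes of 0.05 and 0.26 for Rpl23. Without replicate 5 the WT changes were 0.25 for Gm9794 and 0.13 for Rpl23. Rpl14-ps1 had changes of 0.06 and 0.21 (adjusted p = 0.436 and 0.0143), with -0.02 and 0.32 for Rpl14. Replicate 5 carried most of these WT changes, which were 0.08 for Rpl14-ps1 and 0.09 for Rpl14 without it (adjusted p = 0.00859 and 0.0181).

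KO against WT asks whether loss of Ninj1 altered these mRNAs. After Pam3, 0 of the 54 genes passed the test, against 4.06% of all genes tested, and 0 passed with DESeq2. At an unadjusted p under 0.05 stood 3 of the 54 genes, against 16.3% of all genes. In media, 0 passed, against 3.03% of all genes, and 0 passed with DESeq2. There 1 of the 54 genes was at an unadjusted p under 0.05, against 13.0% of all genes. The fitted changes after Pam3 had a median of -0.11 and ranged from -0.61 to 0.19, with 44 of 54 below 0. In media they had a median of 0.07 and ranged from -0.21 to 0.27, with 50 of 54 above 0. The libraries of KO and WT did not overlap for 2 genes in media, against 4.27% of all genes, and for 0 after Pam3, against 2.53%.

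The direction after Pam3 changed without replicate 5. Then the median change was 0.05, 41 of the 54 genes were above 0, and Rpl13a was higher in KO by 0.18 (SE 0.0550, adjusted p = 0.0337), against 8.09% of all genes. Its KO level was 11.5 to 12.8 CPM, and the other 5 WT libraries were at 11.6 CPM or less. In media the same fit called 3 genes higher in KO, Rpl14 and Rpl4 among them, against 8.75% of all genes. Fitted on the 12 media libraries alone, 5 genes were higher in KO, among them Rpl14, Rpl4, Rplp0 and Rps9, against 7.97% of all genes. Rpl14 stood at 46.2, 48.7 and 52.7 CPM in KO and 42.3, 44.1 and 45.8 CPM in WT, for a change of 0.15 (SE 0.122, adjusted p = 0.712 with all libraries, and SE 0.0338, adjusted p = 0.00382 without replicate 5). Summed granulocyte and stromal markers were also higher in KO in media, at 92.9 to 108 CPM and 54.4 to 99.3 CPM in KO against 71.7 to 83.4 CPM and 40.4 to 51.6 CPM in WT. After Pam3 the summed stromal level was 131 to 179 CPM in KO against 94.3 to 131 CPM in WT, and the summed granulocyte level had a median of 60.6 CPM in KO against 47.5 CPM in WT, where the granulocyte levels overlapped. Between Pam3 and media, 7 of the 9 granulocyte markers tested fell and 1 rose in each genotype, with medians of -1.47 in KO and -1.36 in WT. Of all genes tested, 44.8% were lower and 40.2% higher in KO, and 44.2% lower and 40.6% higher in WT. The summed stromal level was higher after Pam3 in both genotypes. Of the 8 stromal markers, 1 passed as higher, Pdgfrb, by 5.37 in KO and 5.75 in WT. Of the others, 3 passed as lower in KO and 1 in WT, or 4 and 0 without replicate 5. The median change of the 8 markers was -0.28 in KO and -0.02 in WT. The part of these markers in the changes of ribosomal protein genes was not tested.

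The interaction, or KO response to Pam3 less the WT response, passed for 0 of the 54 genes, against 0.762% of all genes, and for 0 with DESeq2. At an unadjusted p under 0.05 stood 4 of the 54 genes, against 12.2% of all genes. The median interaction was -0.21 with 49 of 54 genes below 0. Without replicate 5 it was -0.02 with 34 of 54 below 0, again with 0 past the test, against 3.73% of all genes.

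**Figure D5:**
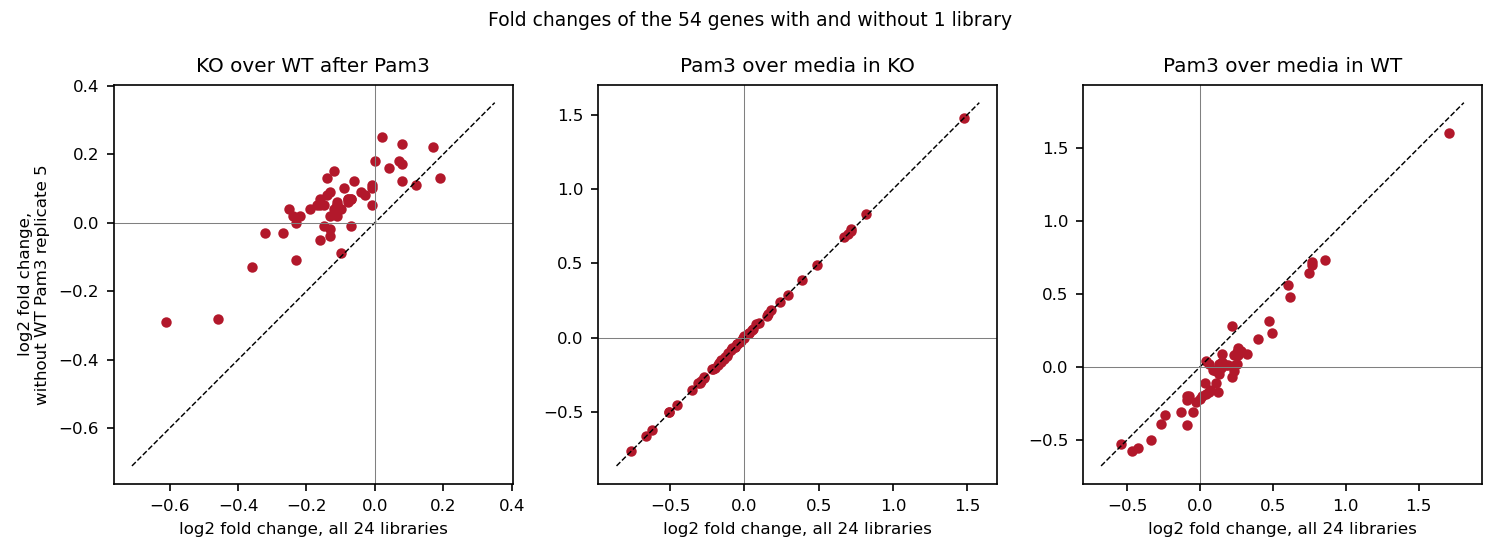
Log2 fold changes of the 54 genes without WT Pam3 replicate 5 (vertical) against those with all 24 libraries (horizontal), for KO over WT after Pam3, Pam3 over media in KO and Pam3 over media in WT, with a dashed line of equality. In the left panel most genes lie above the line and the median is 0.05 without the library and -0.11 with it, in the right panel most lie below it, and in the middle panel they lie on it.

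Lists of genes that act around the ribosome give a setting for these values. Of 55 ribosome biogenesis genes, 51 were higher and 2 lower in KO, and 50 higher and 2 lower in WT, with medians of 1.15 and 1.12. Over all genes tested, 40.2% were higher and 44.8% lower in KO, and 40.6% and 44.2% in WT. Rrs1, an assembly factor of the 5S particle, rose by 3.22 in KO and 3.23 in WT, and Sbds, which releases a joining inhibitor from the large subunit, by 2.53 and 2.68. The 2 that fell were Rrp1b, by 0.41 in KO and 0.55 in WT, and Polr1c, by 0.29 and 0.22. The 40 initiation factors had 28 higher and 8 lower in KO, and 30 higher and 6 lower in WT, with medians of 0.68 and 0.69. Eif1ax, which scans for the start codon, rose by 1.63 and 1.57.

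Of 12 elongation and termination factors, 5 were higher and 6 lower in KO, and 6 higher and 3 lower in WT, or 91.7% and 75.0% called. Eef2k, the kinase that brakes elongation, fell by 4.34 in KO and 4.15 in WT. Among 20 other TOP mRNAs, 8 were higher and 9 lower in KO, and 10 higher and 6 lower in WT, or 85.0% and 80.0% called, against 85.0% and 84.8% of all genes and 35.2% and 38.9% of the 54 genes. Their changes had medians of -0.04 and 0.06 and ran from -1.08 to 2.07 in KO and from -1.11 to 1.71 in WT. Eef2 fell by 0.52 and 0.47, Eef1a1 by 0.17 in both, and Pabpc1 rose by 0.68 in KO and 0.65 in WT. Of 23 regulators of mTORC1, MYC and TOP mRNAs tested, 14 were higher and 7 lower in KO, and 14 higher and 6 lower in WT. Larp1 rose by 2.63 in KO (SE 0.0507, adjusted p = 6.46e-26) and 2.67 in WT (SE 0.0508, adjusted p = 4.57e-26). It stood at 583, 592 and 615 CPM in KO and 503, 618 and 654 CPM in WT after Pam3, against 89.7, 95.8 and 107 CPM in KO and 91.8, 94.2 and 97.2 CPM in WT in media. Myc, a driver of ribosome biogenesis genes, rose by 2.70 and 2.49. Eif4ebp1, an mTORC1-controlled brake on initiation, rose by 0.35 in KO and 0.36 in WT, or 0.19 in WT without replicate 5, while its relative Eif4ebp2 fell by 2.39 and 2.45. Deptor, an inhibitor of mTOR, fell by 4.94 and 5.17, and Mxi1, which competes with MYC for MAX, by 3.18 and 3.21. Eif4ebp2, Deptor and Mxi1 were chosen after their values were seen.

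The mitochondrial ribosome has its own proteins, named Mrpl and Mrps. Of 75 tested, 27 were higher and 33 lower in KO, and 35 higher and 25 lower in WT, or 80.0% each time, against 85.0% and 84.8% of all genes. Their medians were -0.02 and 0.08 and their median absolute changes 0.378 and 0.414. Outside the symbol rule, Fau, which encodes ribosomal protein eS30 fused to a ubiquitin-like protein, rose by 0.46 in KO and 0.81 in WT, or 0.69 in WT without replicate 5. Rack1, a scaffold bound to the small subunit, fell by 0.18 in KO (adjusted p = 0.00712) and had -0.05 in WT (adjusted p = 0.396), where it fell by 0.14 without replicate 5 (adjusted p = 2.07e-05). Without that replicate the WT response had 51 biogenesis genes higher and 2 lower, 30 and 7 initiation factors, 6 and 6 elongation and termination factors, 10 and 9 other TOP mRNAs, 14 and 8 regulators, and 32 and 32 mitochondrial ribosomal protein genes, against 86.7% of all genes called.

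Promoters of 41 of the 54 genes stood in the RefSeq table (GRCm38.p6), with 50 windows of 250 bases before to 50 after a start. A C followed by at least 6 bases that are each C or T, on the strand of the gene and within 15 bases of the start, stood in 21 of the 50, or 42%, against 14.6% of other protein-coding promoters and 14.2% of all. Windows of 30 bases are shown for some genes with a called change, where the start is the 16th letter and capitals mark the run. Other called genes had an entry without the run, among them Rpl22, which fell in both genotypes, and Rpl27, Rpl7l1, Rps19bp1 and Rps25, which rose. The windows shown thus do not stand for all called genes. Rpl18, Rpl13a and Rpl27a fell in both genotypes, Rpl28 and Rpl9 rose, Rpl15 fell in KO and Rplp2 rose in WT.
Rpl18 (chr7:45718056-45718085, plus strand): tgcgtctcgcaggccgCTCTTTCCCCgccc
Rpl13a (chr7:45128731-45128760, minus strand): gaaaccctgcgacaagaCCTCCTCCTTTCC
Rpl27a (chr7:109519180-109519209, plus strand): gacttcgtgagCTCCTCCCTTTTCCCTTTC
Rpl28 (chr7:4792950-4792979, plus strand): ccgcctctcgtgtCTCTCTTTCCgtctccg
Rpl15 (chr14:18270972-18271001, minus strand): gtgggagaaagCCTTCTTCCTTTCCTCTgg
Rplp2 (chr7:141447636-141447665, plus strand): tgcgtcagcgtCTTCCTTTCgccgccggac
Rpl9 (chr5:65391417-65391446, minus strand): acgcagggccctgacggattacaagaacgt

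Of the 8 genes that rose in both genotypes, 6 had an entry and 1 of them, Rpl28, had the run. Of the 5 that fell in both, 4 had an entry and 3 had it. The difference between these counts was not tested. Other motifs were searched on both strands of the whole window. CCGGAAG, bound by ETS factors such as GABP, stood in 34% of the 50 windows, against 11.8% of other protein-coding promoters and 8.86% of all promoters. AANATGGC, bound by YY1, stood in 26%, against 6.43% and 6.05%. GGGCGG, the GC box, stood in 66%, against 47.8% and 35.7%. CACGTG, the E-box of MYC and MAX, stood in 12%, against 8.03% and 7.15%, and TATAAA, the TATA box, in 6%, against 12.1% and 13.6%. A match is a stretch of letters, not a bound site.

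Below the minimum count, 20 of the 38 genes could still be tested. Rps27a, a fusion of ubiquitin and eS31, had a mean count of 24.9 and rose by 1.39 (SE 0.198, adjusted p = 3.29e-07) in KO and 1.35 (SE 0.202, adjusted p = 7.79e-07) in WT. It stood at 0.644, 1.03 and 1.66 CPM in KO and 0.882, 1.01 and 1.27 CPM in WT after Pam3, against 0.309, 0.389 and 0.599 CPM in KO and 0.313, 0.378 and 0.546 CPM in WT in media. Rpl11 fell by 0.59 (adjusted p = 0.0268) in KO and by 1.01 (adjusted p = 0.000620) in WT at a mean count of 10.4, and Rpl12 by 0.65 and 0.55 (adjusted p = 7.62e-06 and 0.000108). Rpl3 fell by 1.06 and 1.03 (adjusted p = 8.52e-05 and 6.86e-05), while its heart and muscle paralog Rpl3l had a mean count of 0.750. Rpl39l, known from the mouse testis, rose in WT by 1.43 (SE 0.317, adjusted p = 0.000173), with 0.47 in KO (adjusted p = 0.239), at a mean count of 24.2. Of the 20 tested it was the single gene called between genotypes, against 4.06% of all genes after Pam3 and 8.09% without replicate 5. It was lower in KO after Pam3 by 1.25 on the log2 scale (SE 0.328, adjusted p = 0.0271), and by 0.96 without replicate 5 (adjusted p = 0.0404). Its level was 0.301 to 0.849 CPM in KO and 0.593 to 2.64 CPM in WT after Pam3, and these groups overlapped. Its interaction did not pass with all libraries or without replicate 5 (adjusted p = 0.444 and 0.516). Among other paralogs, Rps27, Rpl36a and Rpl36al had mean counts of 13.7, 13.6 and 17.7, Rpl39 had nearly the same mean count as Rpl39l, and Rpl10l had 0.0417. No read in any library was counted for 2 of the 38 genes.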

How the data were processed

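RNA-seq was done on polyA RNA of 24 libraries in 4 groups of 6, with unstranded single-end reads of 50 bases per the labels' protocols. The authors' files give, per the file headers, the count of uniquely aligned reads per gene model and an RPKM value adjusted with size factors. GSNAP and GRCm38 are named in the submitters' processing notes, and sources used here give no other settings. Of 52636 gene models, 52489 matched a GENCODE M21 symbol, and the unmatched models held 0.00387% of reads.

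The deposited counts were tested with edgeR 4.0.16 in R 4.3.3: TMM factors, filterByExpr, 1 quasi-likelihood fit of all 24 libraries, and Benjamini-Hochberg adjustment over the 14435 genes tested, with calls at an adjusted p under 0.05. The biological coefficient of variation was 8.21%. CPM are the deposited counts on the TMM scale, not corrected for length, and the deposited RPKM served for levels between genes. Alternatives were DESeq2 1.42.0, RLE factors, library size alone, TMM without these genes, no filter, pseudogene reads added, fits of the compared groups alone, and each library left out. The fit was tested on simulated counts. Coding windows came from transcripts of the annotation, with up to 2 mismatches. Named genes were fixed ones (the stalk genes, Rpsa, paralog pairs and others), the 6 largest rises and falls past the test in each comparison, and the highest and lowest levels. The genes and all lists were chosen with earlier results of these data known. A few single genes are counted in all totals but not reported here by name.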

Additional observations from a re-analysis of the deposited data

Results flagged for a closer look

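In the WT group after Pam3, 1 library, replicate 5, stood apart from the other 5 by a gap that was large for the range of its group. It held 0.361% of counted reads in the 54 ribosomal protein genes, where the next highest library held 0.215%. The summed level was 4359 CPM on the TMM scale, with 2608 CPM in the next highest library. Pseudogenes that share a coding window with these genes held 0.0966% of its reads, against 0.0580% in the next highest library.

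Gene by gene, this library was the one that stood apart, as the highest, for 41 of the 54 genes, and it stood apart as the lowest for 0. Over the 216 pairs of a gene and a group, 11 other pairs had a library apart. Chance flags about 1 in 20 groups, but genes of the same library do not vary independently. The share of all genes flagged in this library was not counted. The same library was high for short transcripts over all genes, and the part of transcript length in its values was not tested.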

How the results depend on the processing

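Of 40 single-gene calls after Pam3, 22 kept their direction and their call under every alternative, and 34 did so under every alternative but scaling to library size alone. With library size alone, 4 genes were higher and 43 lower in KO, and 4 higher and 39 lower in WT, against 87.4% and 87.6% of all genes called. There the change turned to -0.09 for Rpl10 and -0.19 for Rps20 in KO, and in WT to -0.20 for Rpl14, -0.26 for Rpl23, -0.24 for Rpl8, -0.26 for Rplp0, -0.03 for Rplp2, -0.05 for Rps20, -0.12 for Rps24 and -0.27 for Rps9, while the median of all genes moved to -0.56 in KO and -0.58 in WT. In fits of the compared groups alone, 5 genes were higher in KO than WT in media and 18 were lower after Pam3 in KO, while in WT 11 were higher and 6 lower and Rpl14, Rpl8, Rplp0 and Rps9 lost their calls. Of all genes, 7.97%, 88.4% and 83.3% passed in these fits, in that order. The cause of the changed calls was not tested. With 1 library left out in turn, Pam3 in KO gave 9 to 12 genes higher and 8 to 18 lower, and in WT 14 to 18 higher and 6 to 16 lower. KO over WT then gave 0 to 3 higher in media and 0 to 1 after Pam3. Without WT Pam3 replicate 5 these counts were 12, 18, 15, 16, 3 and 1. The share of all genes called was then 87.7% for Pam3 in KO and 86.7% in WT, against 85.0% and 84.8% with all libraries. For KO over WT it was 8.75% in media and 8.09% after Pam3, against 3.03% and 4.06%. The median share of reads, with pseudogenes named after the genes added, was 0.234% in KO after Pam3, 0.340% in KO in media and 0.320% in WT in media, and outside mitochondrial and the 10 most abundant genes it was 0.242%, 0.373% and 0.353%. No paired analysis was possible because the labels give no replicate numbers, animals or batches. Depth limits the genes with low counts, of which 12 had a mean under 100.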
